A study of Homo sapiens with 9 samples.

Results

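Expressed long noncoding RNA genes of H358 cells were followed after loss of either ATPase of the SWI/SNF chromatin remodelling complex. The set holds every GENCODE 29 gene annotated as lincRNA (a long noncoding gene lying between other genes) or as antisense, outside chromosomes X, Y and M, whose group mean reached 5 CPM in at least 1 of the 3 genotypes. CPM are reads per 1000000 reads of a library after TMM scaling, a correction for library composition. This rule kept 377 of 12603 candidate genes, 179 lincRNA and 198 antisense, in an annotation of 58237 genes. Of the candidates, 6166 had no read in any library. All 377 passed the low-count filter of the test, so counts of calls below cover every one of them. The group means that chose them enter the comparisons too, and a gene kept only for its level in 1 genotype had to differ from the others, so the counts describe the set and support nothing further. Just inside the threshold were AL021368.2, LINC01089 and LINC02535, with highest group means of 5.015, 5.019 and 5.024 CPM. Just outside were ATP2C2-AS1, AP003486.1 and RASSF8-AS1, with 4.997, 4.968 and 4.965 CPM.

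The cells are H358, an established human non-small cell lung carcinoma line of epithelial character, kept in RPMI with 10% serum (FBS), and total RNA was extracted. The 3 groups were a CRISPR knockout of BRG1 (gene SMARCA4), a CRISPR knockout of BRM (gene SMARCA2) and the parental line, with 3 libraries each and no drug treatment named. The labels number the replicates without calling them separate cultures, so each p-value measures the spread between these libraries, which may be technical. They give neither the edited site nor whether an edited line was 1 clone, so clonal selection and the loss of the gene cannot be told apart.

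Long noncoding RNAs are transcripts of RNA polymerase II with no long reading frame. Many start beside a protein-coding promoter and run from the opposite strand, some carry microRNAs or small nucleolar RNAs (snoRNAs, guides of RNA modification) inside their introns or exons, and a few act as nuclear scaffolds. BRG1 and BRM are alternative motors that move nucleosomes at promoters and enhancers, where noncoding transcription also begins.

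Each library held between 31964385 and 40673480 reads assigned to genes. SMARCA4 had 23.9, 21.1 and 23.6 CPM in the BRG1 knockout, 239.8, 245 and 249 CPM in the BRM knockout and 244, 216 and 212 CPM in parental cells. SMARCA2 averaged 45.2 ± 14.8, 10.6 ± 1.34 and 54.3 ± 4.47 CPM in the same order (SD, n = 3 each). Each edited gene was lowest in its own knockout. The 7 epithelial markers examined (EPCAM, CDH1, KRT8, KRT18, KRT19, NKX2-1, SFTPB) summed to 421.5 to 1176 CPM in BRG1 knockout libraries, 4875 to 5735 CPM in BRM knockout libraries and 5199 to 5448 CPM in parental libraries. With BRG1 loss 5 of them fell, KRT19 did not pass and SFTPB, at or near 0 in every library, was not tested. The 3 markers of other cell types (PTPRC, PECAM1, DCN) summed to 1.466 to 2.358, 0.1609 to 0.3011 and 0.5479 to 1.26 CPM in the 3 groups, with DCN at 0 in 2 parental libraries. BRG1 knockout replicate 3 and parental replicate 1 stood apart from their groups. BRM knockout replicate 2 also differed more from replicates 1 and 3 (chi-square per degree of freedom 67.06 and 46.5) than these did from each other (22.56). It was kept where BRG1 knockout replicate 3 and parental replicate 1 were left out together. The part of the epithelial loss, or of these libraries, in the changes below was not tested, except where values without them are given. In bulk RNA, fewer cells carrying a transcript and less of it per cell cannot be told apart.

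Among the 377 genes, 14 hold a microRNA annotated in GENCODE 29 on their own strand. Mature microRNA sequences from 5 of these hosts are shown because the hosts are described next; capitals mark the seed, bases 2 to 8 of the mature strand, with which a microRNA pairs to its targets. Sequences are from RefSeq on GRCh38.p14.
hsa-miR-34a-5p (host MIR34AHG): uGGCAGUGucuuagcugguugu
hsa-miR-29b-3p (host MIR29B2CHG): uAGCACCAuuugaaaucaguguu
hsa-miR-29c-3p (host MIR29B2CHG): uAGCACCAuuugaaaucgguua
hsa-let-7i-5p (host AC048341.1): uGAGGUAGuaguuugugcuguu
hsa-miR-193b-3p (host MIR193BHG): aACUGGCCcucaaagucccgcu
hsa-miR-22-3p (host MIR22HG): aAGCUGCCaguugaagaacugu
The miR-29b and miR-29c strands share 1 seed, and the other 4 seeds differ from it and from each other. Reads of a host gene measure the long transcript and not the mature microRNA, which these libraries did not measure.

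MIR34AHG (chromosome 1, 9148011 to 9198906, minus strand, hg38 throughout) carries miR-34a, a microRNA known to slow the cell cycle. The host had 0.995, 0.789 and 0.304 CPM in the BRG1 knockout, 30.6, 25.6 and 25.4 CPM in the BRM knockout, and 6.48, 3.94 and 5.56 CPM in parental cells. The 3 groups did not overlap, with the BRM knockout highest and the BRG1 knockout lowest. Its log2 change against parental cells was -2.93 ± 0.36 with BRG1 loss (SE; adjusted p = 0.0001, edgeR quasi-likelihood test) and 2.35 ± 0.32 with BRM loss (adjusted p = 0.00042). All changes below are log2 values with an approximate SE from this test, and adjusted p-values cover all 18205 genes tested. Its nearest coding gene, GPR157, an orphan receptor 18841 bases away, changed by -1.33 ± 0.19 and 2.31 ± 0.20 (adjusted p = 0.00034 and 7.2e-05).

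MIR29B2CHG, the host of miR-29b and miR-29c, followed the same order. It had 0.568, 0.132 and 0.138 CPM in the BRG1 knockout, 7.40, 6.35 and 7.24 CPM in the BRM knockout and 3.01, 1.46 and 1.79 CPM in parental cells, again without overlap. The log2 changes were -2.89 ± 0.52 (adjusted p = 0.0012) and 1.75 ± 0.45 (adjusted p = 0.011). The fall was -3.97 without BRG1 knockout replicate 1, and the rise no longer passed without parental replicate 2 (1.55, adjusted p = 0.052). AC048341.1, which holds let-7i, went the other way in the BRG1 knockout, with 9.46, 6.66 and 14.2 CPM there, 2.47, 3.28 and 1.42 CPM in the BRM knockout and 1.69, 2.48 and 1.98 CPM in parental cells. All BRG1 knockout libraries lay above all others, a rise of 2.30 ± 0.37 over parental cells (adjusted p = 0.00064). MIR193BHG had 23.8, 24.1 and 11.4 CPM in BRG1 knockout cells, against 10.1, 7.17 and 9.87 CPM in parental cells, which do not overlap although BRG1 knockout replicate 3 lay close to them. Its rise of 1.13 ± 0.31 passed (adjusted p = 0.013), but not without BRG1 knockout replicate 1 (0.92, adjusted p = 0.063), BRG1 knockout replicate 2 (0.89, adjusted p = 0.058) or parental replicate 2 (0.98, adjusted p = 0.055), nor with an offset for transcript length (0.74, adjusted p = 0.084).

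MIR22HG, the host of miR-22, had 11.9, 12.58 and 9.46 CPM in the BRG1 knockout, 2.23, 1.78 and 2.40 CPM in the BRM knockout and 2.73, 6.37 and 4.13 CPM in parental cells. The groups did not overlap, and the BRG1 knockout was highest. It rose by 1.36 ± 0.30 with BRG1 loss (adjusted p = 0.0043) and fell by 1.04 ± 0.31 with BRM loss (adjusted p = 0.022). The fall lost its call without parental replicate 2 (-0.69, adjusted p = 0.11) or 3 (-1.09), without BRM knockout replicate 2 (-0.93, adjusted p = 0.073) and with the length offset (-0.89, adjusted p = 0.076). Across the 14 hosts, 6 rose and 2 fell in the BRG1 knockout, and 6 rose and 2 fell in the BRM knockout, where CYTOR and MIR22HG fell. Over all genes tested, 43.5% passed with BRG1 loss and 37.4% with BRM loss.

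Levels within a genotype are compared per transcript length, as TPM (transcripts per 1000000 transcripts). In parental cells FP236383.3, FP236383.2 and FP671120.3 on chromosome 21 led, at 783 ± 195, 747 ± 288 and 711 ± 217 TPM (SD, n = 3). These 3 share 100% of their sequence words of 31 bases with other transcripts, each mainly with another of the 3, so their reads cannot be assigned to a single copy. Of the next genes in order, AC145207.3, wholly opposite exons of P4HB, averaged 236 ± 73.7 TPM, SNHG8, a snoRNA host, 179.7 ± 20.5 TPM, MIR4435-2HG 171 ± 9.61 TPM and ZFAS1 160.5 ± 20 TPM in parental cells. Without a stated strand setting the reads of AC145207.3 cannot be told apart from those of P4HB. NORAD, a cytoplasmic RNA known to bind Pumilio proteins, averaged 146 ± 5.90 TPM, CYTOR 129 ± 4.05 TPM and MALAT1, a nuclear speckle RNA, 122 ± 9.34 TPM. Neighbours in this order differed by less than the SD of at least 1 of the pair, apart from FP671120.3 over AC145207.3 and NORAD over CYTOR.

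NORAD took the most reads of the set, by its mean, in each genotype, with 539 ± 152 CPM in the BRG1 knockout, 716 ± 16.8 CPM in the BRM knockout and 527 ± 36.5 CPM in parental cells. Neither change of NORAD passed (adjusted p = 0.91 and 0.098; fitted on 6 libraries the BRM knockout change of 0.36 did, adjusted p = 0.016), and 56.4% of its sequence words occur in other transcripts. AFAP1-AS1, transcribed against the actin-filament protein gene AFAP1, had 190.1, 139.8 and 219.9 CPM in the BRG1 knockout, 267, 249.5 and 239.5 CPM in the BRM knockout and 203, 279 and 219 CPM in parental cells, and each knockout overlapped parental cells. Neither change passed (adjusted p = 0.15 and 0.68), but without BRG1 knockout replicate 3 the change in the BRG1 knockout was -0.58 and did (adjusted p = 0.021). AFAP1 itself fell by 0.74 ± 0.14 with BRG1 loss (adjusted p = 0.0019), and its change with BRM loss did not pass (0.13, adjusted p = 0.52). FGD5-AS1 averaged 107 ± 35.5, 63.3 ± 5.33 and 106 ± 7.10 CPM and LINC00665 67.3 ± 7.28, 80.6 ± 6.33 and 97.4 ± 13.1 CPM in the BRG1 knockout, the BRM knockout and parental cells. Most genes of the set were low: 125 of 377 reached 10 CPM in the BRG1 knockout, 140 in the BRM knockout and 125 in parental cells. Only 10, 9 and 8 reached 100 CPM in the same groups. The threshold of 5 CPM was met in all 3 genotypes by 164 genes, in exactly 2 by 87 and in 1 by 126, of which 44 were above it only in the BRG1 knockout, 47 only in the BRM knockout and 35 only in parental cells. The set took 0.608 ± 0.0766% of the reads in the BRG1 knockout, 0.793 ± 0.0415% in the BRM knockout and 0.647 ± 0.0396% in parental cells (SD, n = 3 each), and the 10 most abundant genes of a library held 34.0% to 48.4% of that.

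With BRG1 loss, 86 of the 377 genes rose and 106 fell, 50.9% of the set, against 43.5% of the 18205 genes tested, 21.6% of which rose and 21.9% fell. Among protein-coding genes kept by the same 5 CPM rule, 47.3% of 11384 passed, 23.1% upward and 24.2% downward. The median log2 change was -0.08 in the set and -0.01 over all genes. The 1754 other lincRNA and antisense genes tested, all below the threshold, passed in 31% of cases. Without BRG1 knockout replicate 3 and parental replicate 1, which stood apart, 94 genes of the set rose and 122 fell with BRG1 loss, and 112 rose and 97 fell with BRM loss.

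Among the 8 largest rises were intergenic RNAs that were low in parental cells. AC117402.1 (chromosome 3, 110888384 to 110893476, minus strand) had 17.8, 15.8 and 46.6 CPM in the BRG1 knockout, 0.295, 0.693 and 0.456 CPM in the BRM knockout and 1.38, 0.757 and 0.930 CPM in parental cells. Every BRG1 knockout library was above every other library, with replicate 3 the highest. Its rise over parental cells was 4.71 ± 0.49 (adjusted p = 4.3e-05), or 3.97 without BRG1 knockout replicate 3, and the nearest coding gene, NECTIN3, lay 176595 bases away. DUBR, a noncoding RNA described in mouse muscle differentiation, showed the same pattern, with 10.7, 10.1 and 35.2 CPM in BRG1 knockout cells against 2.33, 2.48 and 2.93 CPM in parental cells. It rose by 2.85 ± 0.48 (adjusted p = 0.00083), and by 1.93 without BRG1 knockout replicate 3. LINC02302 rose by 3.12 ± 0.41 (adjusted p = 0.00018) and was at 0.641 ± 0.280 CPM in the BRM knockout and 0.793 ± 0.187 CPM in parental cells. AC104825.1 had 7.08, 5.95 and 5.12 CPM in the BRG1 knockout, 2.41, 1.99 and 3.24 CPM in the BRM knockout and 0.246, 0.339 and 0.334 CPM in parental cells, so that both knockouts lay above all parental libraries. Its rises were 4.28 ± 0.33 in the BRG1 knockout and 3.04 ± 0.32 in the BRM knockout (adjusted p = 5.7e-06 and 0.00015).

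Other rises lay against or beside coding genes. AL138478.1, whose exons lie wholly opposite exons of the forkhead gene FOXN3 and share 100% of their words with it, rose by 3.79 ± 0.40 (adjusted p = 4.1e-05). Without a stated strand setting its reads cannot be told apart from those of FOXN3. LINC02593, 2912 bases from SAMD11, had 45.3, 28.4 and 25.2 CPM in the BRG1 knockout, 7.78, 7.74 and 6.35 CPM in the BRM knockout and 5.16, 2.98 and 4.25 CPM in parental cells. It rose by 3.00 ± 0.28 (adjusted p = 2e-05), beside 3.76 ± 0.31 for SAMD11 (adjusted p = 8.5e-06). AC092683.1 rose by 3.08 ± 0.51 (adjusted p = 0.0007), or by 2.26 with an offset for transcript length, and shares 64.4% of its words with other transcripts.

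The falls reached the limit of detection. AL365226.2 (chromosome 6, 70394887 to 70399417, plus strand) kept 1 read in the 3 BRG1 knockout libraries together, against 622 reads in the 3 parental libraries. The scaled ratio was 629.6 (95% counting interval 112.6 to 24910, for counting error alone), and the single read was in replicate 1. In the BRM knockout it had 2.25, 2.86 and 2.13 CPM, between the other groups. The fall in the BRG1 knockout had an adjusted p of 3.5e-06. The coding gene FAM135A, which begins beyond its end at 70412941, did not pass there (-0.31 ± 0.27, adjusted p = 0.39). MANCR, named for its association with mitosis, had 0.0568, 0.184 and 0 CPM in the BRG1 knockout, 7.91, 6.71 and 8.28 CPM in the BRM knockout and 5.96, 11.8 and 9.80 CPM in parental cells. It fell by 6.76 ± 0.59 in the BRG1 knockout (adjusted p = 1.3e-05), or by 8.27 without BRG1 knockout replicate 2, and the BRM knockout overlapped parental cells. PCAT1, first described in prostate cancer and lying on chromosome 8 opposite FAM84B, had 0.313, 0.526 and 0.0830 CPM in the BRG1 knockout, 33.6, 25.3 and 26.1 CPM in the BRM knockout and 15.9, 9.42 and 12.8 CPM in parental cells. No groups overlapped. It fell by 5.34 ± 0.43 in the BRG1 knockout (adjusted p = 7.9e-06), or by 6.05 without BRG1 knockout replicate 2, and FAM84B fell by 3.06 ± 0.27 (adjusted p = 1.3e-05).

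AL590666.2, AL365181.3 and AL365181.2 lie around the brevican gene BCAN on chromosome 1 and fell together in the BRG1 knockout. AL365181.3 (156641666 to 156644887, minus strand), 1 of the 10 most read genes of the set in parental cells, had 7.25, 4.97 and 4.29 CPM in the BRG1 knockout, 71.3, 67.5 and 70.0 CPM in the BRM knockout and 105, 86.1 and 92.1 CPM in parental cells. The BRG1 knockout lay far below both other groups, a fall of 4.10 ± 0.21 (adjusted p = 6.1e-07). AL365181.2 averaged 4.17 ± 1.72, 49.3 ± 0.521 and 40.2 ± 5.79 CPM in the BRG1 knockout, the BRM knockout and parental cells, and fell by 3.27 ± 0.26 in the BRG1 knockout (adjusted p = 7.4e-06). AL590666.2 averaged 0.591 ± 0.239, 13.6 ± 0.389 and 19.4 ± 2.80 CPM and fell by 5.03 ± 0.30 (adjusted p = 1.6e-06). AL365181.3 and AL590666.2 overlap BCAN on the other strand and share 10.3% and 45.0% of their words with other transcripts, mainly BCAN, which itself was at or below 1.53 CPM in every library. BCAN also fell with BRG1 loss, by 2.77 ± 0.85 (adjusted p = 0.022), with 13 reads in the BRG1 knockout against 99 in parental cells. In the intergenic class, AC104024.2 fell by 4.55 ± 0.46, AC005332.2 by 4.54 ± 0.38 and AC093904.4 by 4.22 ± 0.48 (adjusted p = 3.1e-05, 9.9e-06 and 7.9e-05). Without BRG1 knockout replicate 1 the falls of AC104024.2 and AC093904.4 were 5.25 and 5.04.

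**Figure D1:**
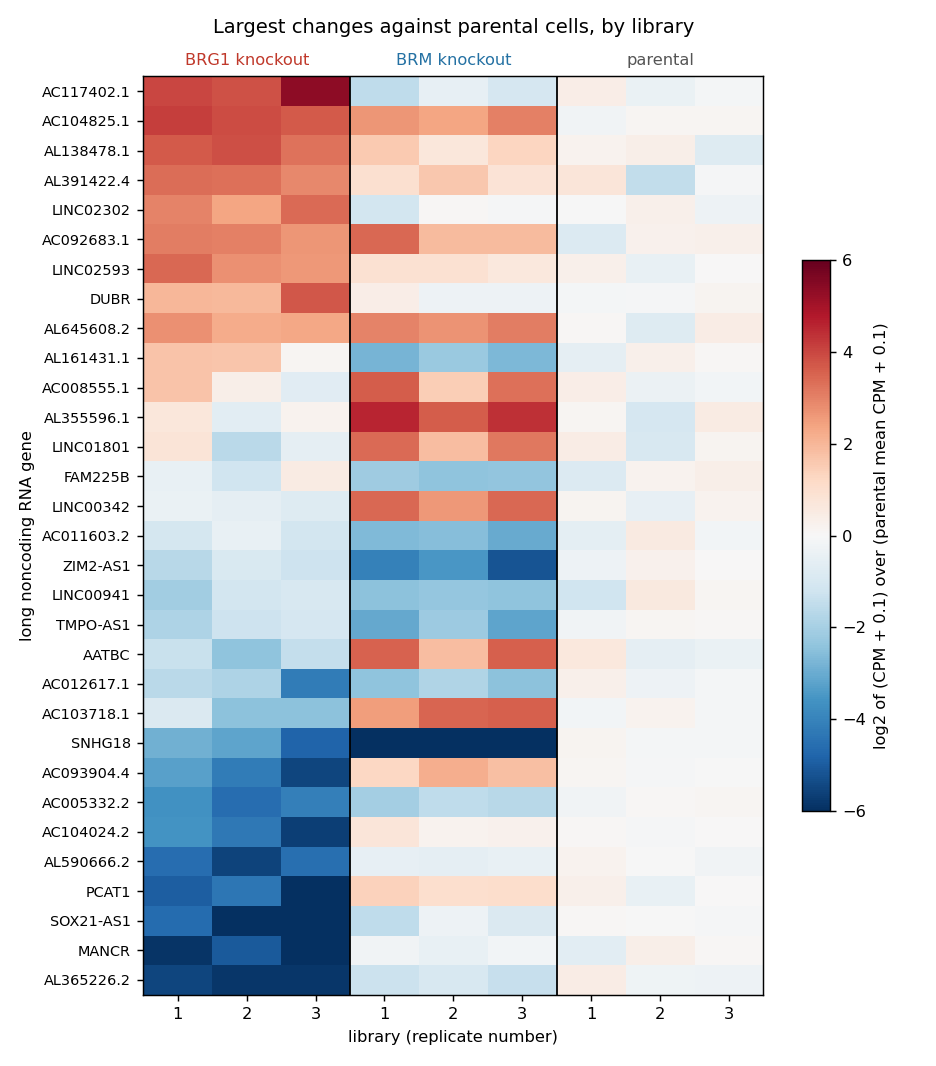
Heat map of the 31 genes with the largest rises and falls of each knockout against parental cells, with 1 column per library (BRG1 knockout, BRM knockout, parental) and colour giving log2 of CPM plus 0.1 over the parental mean plus 0.1. SNHG18 is lost in all 3 BRM knockout libraries, and AATBC, AC103718.1, AC093904.4 and PCAT1 are low in the BRG1 knockout and high in the BRM knockout.

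With BRM loss, 99 of the 377 genes rose and 71 fell, 45.1% of the set, against 37.4% of all genes tested, 21.0% of which rose and 16.4% fell, and 43.7% of protein-coding genes at the same threshold, 23.8% upward and 19.9% downward. The median log2 change was 0.18 in the set and 0.09 over all genes. The count of 170 depended on single parental libraries: it was 109 without parental replicate 2 and 106 without parental replicate 3. Both knockout comparisons share the 3 parental libraries, so their calls are not independent of each other.

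AL355596.1 (chromosome 6, 141447011 to 141451006, plus strand), with no coding gene within 607324 bases, showed the largest rise. It had 12.4, 6.44 and 10.9 CPM in BRM knockout cells, against 0.461, 0.157 and 0.644 CPM in parental cells, and 0.739, 0.237 and 0.498 CPM in the BRG1 knockout. Every BRM knockout library was above every other, a rise over parental cells of 4.54 ± 0.53 (adjusted p = 0.00022). LINC00342 had 27.4, 15.2 and 26.6 CPM in BRM knockout cells, against 2.73, 1.70 and 2.74 CPM in parental cells, without overlap, and rose by 3.27 ± 0.30 (adjusted p = 9.2e-05); 48.0% of its words occur in other transcripts. AATBC, first described in bladder cancer, had 25.5, 7.92 and 26.5 CPM against 3.29, 1.44 and 1.57 CPM, with BRM knockout replicate 2 the lowest of its group, and rose by 3.26 ± 0.52 (adjusted p = 0.00097).

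AC008555.1 and LINC01801 lie 38360 and 15353 bases from the zinc-finger gene ZNF599 on chromosome 19. They rose by 3.19 ± 0.70 and 3.13 ± 0.69 in the BRM knockout (adjusted p = 0.0053 and 0.0052), where replicate 2 was the lowest library for both. LINC01801 spans AC008555.1 on the same strand, so their reads may not be separated. AC103718.1, 25173 bases from the gasdermin gene GSDMC on chromosome 8, rose by 3.51 ± 0.65 (adjusted p = 0.0021), and GSDMC by 2.62 ± 0.54 (adjusted p = 0.0035). AL645608.2, like LINC02593 a neighbour of SAMD11, had 6.46, 5.30 and 6.96 CPM in BRM knockout cells, against 0.768, 0.391 and 1.02 CPM in parental cells, a rise of 3.09 ± 0.36 without overlap (adjusted p = 0.00021).

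The largest fall with BRM loss was that of SNHG18 (chromosome 5, 9546200 to 9550609, plus strand), a snoRNA host. It kept 1 read in the 3 BRM knockout libraries together, against 1063 reads in the parental libraries. The scaled ratio was 1088 (95% counting interval 194.9 to 43030; adjusted p = 6.6e-05), and the single read was in replicate 1. ZIM2-AS1, antisense at an imprinted zinc-finger locus, had 0.778, 1.20 and 0.304 CPM in BRM knockout cells, against 11.8, 17.3 and 14.7 CPM in parental cells, without overlap. It fell by 4.27 ± 0.43 (adjusted p = 0.00013). AC011603.2, 80.2% of whose exonic bases lie opposite coding exons of the alpha-tubulin locus TUBA1B, fell by 2.80 ± 0.34 (adjusted p = 0.00026), and TUBA1B by 2.72 ± 0.28 (adjusted p = 0.00013).

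AL161431.1 had 1.55, 2.38 and 1.67 CPM in BRM knockout cells, against 7.83, 14.1 and 12.0 CPM in parental cells, and fell by 2.6 ± 0.42 (adjusted p = 0.0011). LINC00941, with 1.5, 1.66 and 1.57 CPM against 3.81, 13.0 and 9.32 CPM, fell by 2.47 ± 0.45 (adjusted p = 0.0019); parental replicate 1 was the lowest parental library for both. FAM225B and AC012617.1 fell by 2.34 ± 0.43 and 2.29 ± 0.57 (adjusted p = 0.0022 and 0.0095). They share 75.8% and 84.1% of their words with other transcripts, FAM225B mainly with its copy FAM225A. CYTOR, a cytoplasmic RNA linked to cytoskeletal genes, had 12.5, 18.0 and 14.7 CPM in BRM knockout cells, against 36.5, 44.8 and 37.9 CPM in parental cells, and fell by 1.40 ± 0.18 (adjusted p = 0.00034). Of its words, 29.7% occur elsewhere, mainly in the related MIR4435-2HG.

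The knockouts were also compared with each other without parental libraries in the contrast. Between the BRG1 and the BRM knockout, 77 genes were higher and 118 lower in the BRG1 knockout, 51.7% of the set. This stands against 45.3% of all genes tested (21.6% higher, 23.8% lower) and 50.7% of protein-coding genes at the same threshold (25.1% higher, 25.6% lower). The median difference was -0.15. Against parental cells, 19 genes fell with BRG1 loss and rose with BRM loss, and 7 rose with BRG1 loss and fell with BRM loss. All 26 differed between the knockouts in the direct comparison. The 19 were AATBC, ABALON, AC010329.1, AC024909.2, AC026202.3, AC080112.1, AC093904.4, AC103718.1, AC105219.3, AL512274.1, CU639417.4, FAM201A, GAS6-AS1, HAGLR, LUCAT1, MIR29B2CHG, MIR34AHG, PCAT1 and RHPN1-AS1. The 7 were AC009133.1, AC022613.1, AC084033.3, AL161431.1, LINC01234, LOXL1-AS1 and MIR22HG. The 26 are 6.9% of the set, and 5.24% of all genes tested had such opposite calls. Both comparisons share the parental libraries.

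SNHG18 (88 reads against 1), AC117402.1 and AL161431.1 stood highest in the BRG1 knockout relative to the BRM knockout. The scaled SNHG18 ratio was 89.0 (95% counting interval 15.6 to 3555; adjusted p = 0.00028). AC117402.1 and AL161431.1 differed by 5.80 ± 0.53 and 3.94 ± 0.44 (adjusted p = 1.3e-05 and 5.2e-05). AC084033.3 had 8.61, 8.84 and 7.55 CPM in the BRG1 knockout, 0.536, 0.602 and 0.607 CPM in the BRM knockout and 2.67, 3.08 and 2.77 CPM in parental cells. Its libraries hardly varied within a group, and the difference between the knockouts was 3.83 ± 0.25 (adjusted p = 1.3e-06). AL136988.1, wholly opposite exons of GALNT2 and sharing 97.5% of its words with other transcripts, differed by 3.13 ± 0.28 (adjusted p = 1.1e-05), LINC02302 by 3.43 ± 0.42 and ZIM2-AS1 by 3.00 ± 0.42 (adjusted p = 9.1e-05 and 0.0002). Without BRG1 knockout replicate 3 the difference of AC117402.1 was 5.15.

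On the other side, AL365226.2 had 1 read in the BRG1 knockout against 263 in the BRM knockout, a scaled ratio of 260.0 (95% counting interval 46.3 to 10310; adjusted p = 6.1e-06). PCAT1 differed by -6.50 ± 0.45, MANCR by -6.49 ± 0.59 and AC103718.1 by -6.25 ± 0.81 (adjusted p = 1.9e-06, 1.2e-05 and 0.00013). AC093904.4 had 1.31, 0.631 and 0.194 CPM in the BRG1 knockout, 31.8, 59.9 and 47.0 CPM in the BRM knockout and 14.2, 12.5 and 12.9 CPM in parental cells, without overlap. AC010329.1 had 0.597, 0.210 and 0.0830 CPM in the BRG1 knockout, 13.4, 13.8 and 14.9 CPM in the BRM knockout and 4.79, 2.04 and 2.17 CPM in parental cells, in the same order. Their differences between the knockouts were -6.02 ± 0.50 and -5.56 ± 0.57 (adjusted p = 8.6e-06 and 2.8e-05). SOX21-AS1 differed by -5.54 ± 0.60 and MIR34AHG by -5.28 ± 0.38 (adjusted p = 3.9e-05 and 2.5e-06). For genes near 0 in the BRG1 knockout the size rests on single libraries: without BRG1 knockout replicate 1 the difference was -10.55 for AC103718.1, -6.75 for AC093904.4, -6.51 for AC010329.1 and -7.16 for SOX21-AS1. Without BRG1 knockout replicate 2 it was -7.14 for PCAT1, -7.91 for MANCR and -5.66 for AC103718.1. Without BRG1 knockout replicate 3 it was -5.90 for MANCR.

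Among nuclear RNAs, MALAT1 (chromosome 11, 65497688 to 65506516, plus strand), which marks splicing speckles, was higher in both knockouts. It had 761, 431 and 323 CPM in the BRG1 knockout, 511, 475 and 702 CPM in the BRM knockout and 196, 160.4 and 214 CPM in parental cells. Both knockouts lay above all parental libraries, with rises of 1.41 ± 0.29 and 1.56 ± 0.29 (adjusted p = 0.0028 and 0.0022). NEAT1 (chromosome 11, 65422774 to 65445540, plus strand), the scaffold of paraspeckles, had 228, 112 and 101 CPM in the BRG1 knockout, 507, 728 and 699 CPM in the BRM knockout and 111, 96.8 and 157 CPM in parental cells. The BRG1 knockout overlapped parental cells and the BRM knockout lay above both. It rose by 2.40 ± 0.32 in the BRM knockout (adjusted p = 0.00043), while its change in the BRG1 knockout did not pass (adjusted p = 0.50), and the difference between the knockouts was -2.13 ± 0.32 (adjusted p = 0.00037).

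NEAT1 has short transcripts and 1 very long one, which is the form known to build paraspeckles. The long transcript (ENST00000501122) took 35.5%, 17.3% and 30.9% of the NEAT1 reads in the BRG1 knockout, 75.4%, 90.7% and 90.5% in the BRM knockout and 26.9%, 26.9% and 31.5% in parental cells. Its level was 4.42, 0.940 and 1.95 TPM in the BRG1 knockout, 23.1, 39.8 and 37.3 TPM in the BRM knockout and 1.81, 1.67 and 3.10 TPM in parental cells. The BRM knockout stood apart on both scales, and NEAT1 as a whole averaged 74.9 ± 4.84 TPM there against 45.6 ± 11.6 TPM in parental cells. With an offset for the mean transcript length of each library, the gene's change in the BRM knockout was 0.71 and no longer passed (adjusted p = 0.065), and its difference between the knockouts was -0.40 (adjusted p = 0.26). Reads of ribosomal RNA genes took 0.357% to 0.492% of the BRG1 knockout libraries, 0.437% to 0.651% of the BRM knockout libraries and 0.154% to 0.220% of the parental ones. Their part in the nuclear RNA levels was not tested.

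**Figure D2:**
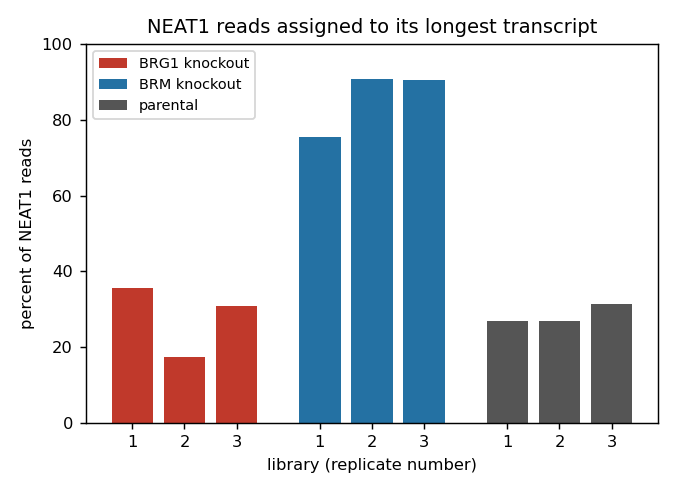
Percent of NEAT1 reads assigned to its longest transcript, 1 bar per library (BRG1 knockout, BRM knockout, parental). The BRM knockout libraries reach 75.4% to 90.7%, against 17.3% to 35.5% in the other 6.

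Genes that carry snoRNAs are spliced RNAs whose introns release the small RNA. Of 12 such hosts in the set by position, 2 rose and 2 fell in the BRG1 knockout, and 3 rose and 2 fell in the BRM knockout, beside 43.5% and 37.4% of all genes tested that passed. ZFAS1 had 134, 113 and 62.4 CPM in the BRG1 knockout, 81.6, 123 and 102 CPM in the BRM knockout and 62.7, 50.4 and 47.9 CPM in parental cells. BRG1 knockout replicate 3 lay within the parental range, and the BRM knockout lay above it. The rises were 0.94 ± 0.26 and 0.93 ± 0.26 (adjusted p = 0.014 and 0.017). The first lost its call without BRG1 knockout replicate 1 (0.65, adjusted p = 0.082) or 2 (0.81, adjusted p = 0.053), the second without BRM knockout replicate 2 (0.78, adjusted p = 0.066), and both without parental replicate 2 (0.90 and 0.89) or 3 (0.87 and 0.86). The second was also lost with the length offset (0.71, adjusted p = 0.081). Of the exonic bases of ZFAS1, 26.1% lie opposite coding exons.

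EPB41L4A-AS1 had 48.8, 39.7 and 21.4 CPM in the BRG1 knockout, 22.5, 30.5 and 30.2 CPM in the BRM knockout and 11.1, 11.0 and 11.7 CPM in parental cells. Both knockouts lay above all parental libraries, with rises of 1.70 ± 0.27 and 1.30 ± 0.26 (adjusted p = 0.00051 and 0.0034), and 49.6% of its exonic bases lie opposite coding exons. EPB41L4A, on the other strand, averaged 0.493, 0.443 and 0.947 CPM in the BRG1 knockout, the BRM knockout and parental cells. Neither change of EPB41L4A passed (-0.93 and -1.08, adjusted p = 0.20 and 0.16). SNHG10 had 6.71, 9.27 and 7.24 CPM in BRM knockout cells, against 17.3, 16 and 18.7 CPM in parental cells, and fell by 1.16 ± 0.23 (adjusted p = 0.0032). Ribosomal protein mRNAs, which like many snoRNA hosts start with a terminal oligopyrimidine tract, took 9.57%, 10.1% and 5.42% of the reads in the BRG1 knockout, 5.89% to 5.94% in the BRM knockout and 4.57% to 5.36% in parental cells. BRG1 knockout replicate 3 was the lowest of its group for these mRNAs as for ZFAS1 and EPB41L4A-AS1; the part of this in the host levels was not tested.

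**Figure D3:**
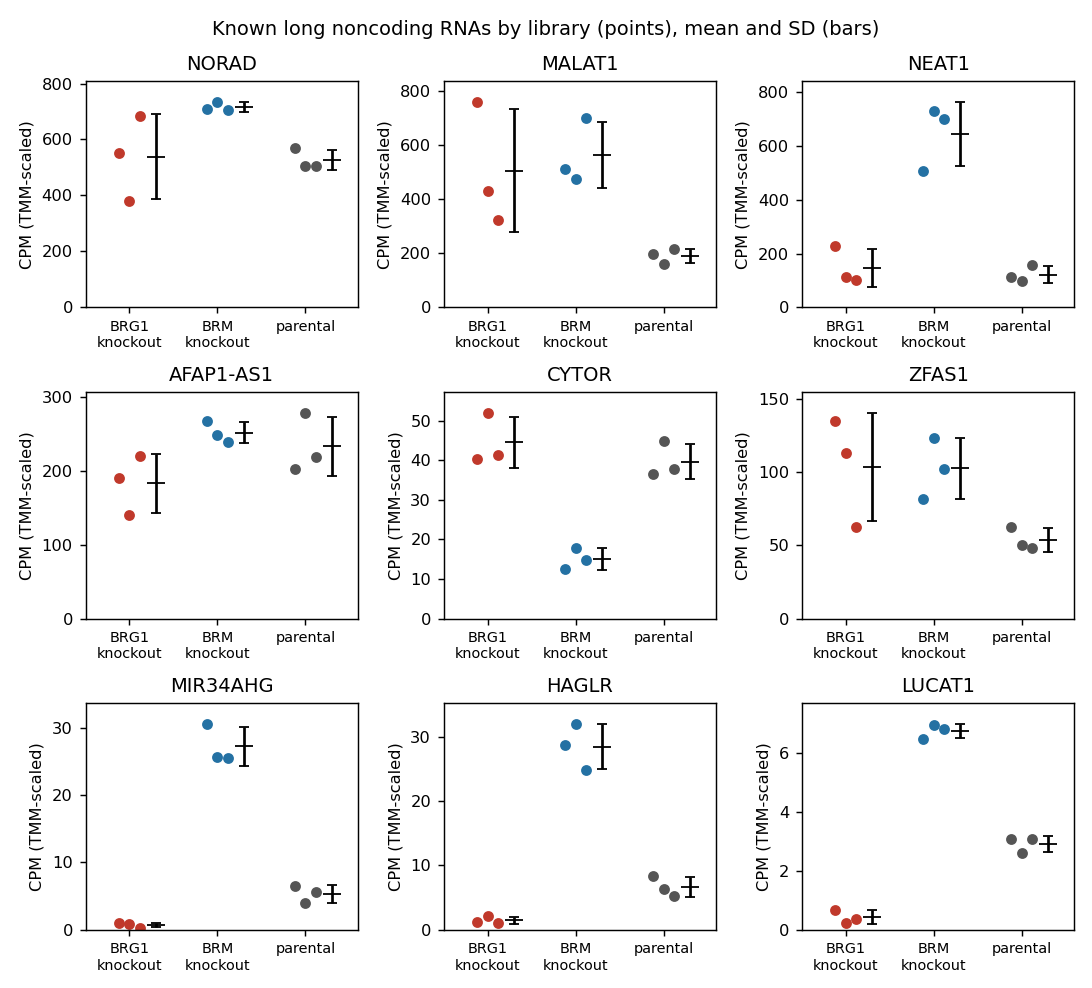
CPM of 9 known long noncoding RNAs in each library (points; BRG1 knockout, BRM knockout, parental from left to right), with the mean and SD of the 3 libraries beside them. NEAT1, MIR34AHG, HAGLR and LUCAT1 are highest in the BRM knockout, CYTOR is lowest there, and MALAT1 is above parental cells in both knockouts.

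LUCAT1, a lung cancer associated transcript known to respond to stress and to NRF2, was low in the BRG1 knockout. It had 0.682, 0.237 and 0.360 CPM in the BRG1 knockout, 6.49, 6.96 and 6.81 CPM in the BRM knockout and 3.07, 2.61 and 3.08 CPM in parental cells. The 3 groups did not overlap. It fell by 2.77 ± 0.36 in the BRG1 knockout (adjusted p = 0.00015), or by 3.62 with the transcript length offset, and rose by 1.21 ± 0.31 in the BRM knockout (adjusted p = 0.012). That rise did not pass without parental replicate 2 (1.13, adjusted p = 0.053) or with the length offset (0.81, adjusted p = 0.072). The difference between the knockouts was -3.98 ± 0.36 (adjusted p = 1.2e-05).

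PVT1, which lies 53099 bases from MYC on chromosome 8, had 6.02, 4.63 and 2.63 CPM in the BRG1 knockout, 17.9, 16.7 and 19.3 CPM in the BRM knockout and 5.83, 7.23 and 6.49 CPM in parental cells. The BRM knockout lay above both other groups, a rise of 1.46 ± 0.27 (adjusted p = 0.002). LINC00973 had 0.597, 1.39 and 0.775 CPM in the BRG1 knockout, 7.21, 5 and 6.07 CPM in the BRM knockout and 8.75, 19.3 and 15.9 CPM in parental cells, without overlap. It fell by 3.98 ± 0.40 and 1.26 ± 0.35 (adjusted p = 2.9e-05 and 0.015). The fall with BRM loss did not pass without parental replicate 2 (-1.02, adjusted p = 0.076) or 3 (-1.20, adjusted p = 0.055), or without BRM knockout replicate 2 (-1.14, adjusted p = 0.057) or 3 (-1.26, adjusted p = 0.052). LINC00460 fell by 1.93 ± 0.36 and 2.17 ± 0.36 (adjusted p = 0.0015 and 0.0012), to 1.71 ± 0.569 CPM in the BRG1 knockout and 1.45 ± 0.478 CPM in BRM knockout cells, against 6.53 ± 1.67 CPM in parental cells.

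Known genes, of any annotated type and counted whether or not they reached 5 CPM, were grouped by role, and the counts are of genes tested. Over all genes tested 43.5% passed in the BRG1 knockout and 37.4% in the BRM knockout. The lists hold, beside long noncoding RNAs, the protein-coding C6orf48 (a snoRNA host) and CASC10 (a microRNA host, which rose with BRG1 loss) and the pseudogene NMRAL2P (stress). Of 26 snoRNA hosts, 4 rose and 1 fell in the BRG1 knockout (median 0.19), and 5 rose and 3 fell in the BRM knockout (median -0.02). Of 21 microRNA hosts, 6 rose and 8 fell in the BRG1 knockout, and 7 rose and 3 fell in the BRM knockout, with medians of -0.25 and 0.71. Among 8 RNAs listed as nuclear-retained or architectural, which include the cytoplasmic CYTOR and NORAD, 2 rose in the BRG1 knockout, and 4 rose and 1, CYTOR, fell in the BRM knockout (medians 0.22 and 0.85). These medians stand beside -0.01 and 0.09 over all genes tested.

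Of 9 chromatin-linked RNAs, 1 rose and 3 fell with BRG1 loss and 1 rose and 2 fell with BRM loss (medians 0.24 and -1.21). The median with BRM loss is that of MIR31HG, which did not pass and had group means of at most 0.583 CPM. Only 1 of these RNAs, KCNQ1OT1, is in the set, and it rose by 0.96 ± 0.33 with BRM loss (adjusted p = 0.041). Of 12 RNAs linked to the epithelial-mesenchymal transition, 3 rose and 4 fell with BRG1 loss and 1 rose and 6 fell with BRM loss (medians -0.22 and -0.81). Of 8 neighbours of lung and endoderm factors, none of them in the set, 2 rose and 3 fell with BRG1 loss and 1 rose with BRM loss (medians -0.53 and 0.51). Of 3 RNAs linked to stress and NRF2, 1 fell with BRG1 loss and 1 rose with BRM loss, which was LUCAT1 in both cases (medians -1.06 and 0.93). Of 2 HOX cluster antisense genes tested, both fell with BRG1 loss and HAGLR rose with BRM loss (medians -1.88 and 0.64).

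Each gene was set beside its nearest protein-coding gene, which was tested for 339 of the 377. Where both passed, they changed in the same direction in 74 of 93 pairs (79.6%) in the BRG1 knockout and in 73 of 82 (89.0%) in the BRM knockout. The same count for protein-coding genes and their nearest protein-coding gene gave 69.6% of 2345 and 69.5% of 2054 pairs. These came from 11466 coding pairs, which were not limited to the 11384 coding genes kept by the 5 CPM rule. Between the knockouts it was 84 of 104 (80.8%), beside 68.7% of 2759 coding pairs. Across the 339 pairs Pearson's r between the log2 changes was 0.45 and 0.53 for the knockouts against parental cells. Over the same 339 pairs, passed or not, the sign was shared in 60.5% and 64.3%, beside 57.6% and 57.5% of coding pairs. In 80 and 73 pairs the noncoding gene passed and its coding neighbour did not. Pairs share the libraries and, where exons overlap, may share reads, so these are descriptions of the set.

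The pairs were also counted by position. In 116 genes the start site lay within 1000 bases of that of a coding gene on the opposite strand, and in these the direction was shared in 22 of 25 pairs in the BRG1 knockout and 24 of 25 in the BRM knockout. Coding pairs in the same arrangement shared it in 70.1% of 321 and 73.6% of 387. Another 112 genes overlapped a coding gene on the other strand (30 of 35 and 23 of 24), 24 overlapped one on the same strand (4 of 5 and 5 of 5), and 125 overlapped none (17 of 27 and 21 of 27). Between the knockouts the shares lay closer together, with 24 of 28 for paired starts, 33 of 41 for overlap on the other strand and 26 of 32 for no overlap. Among genes without overlap whose gap was at most 10000 bases, the direction was shared in 4 of 8 pairs in the BRG1 knockout and 8 of 8 in the BRM knockout. Exons of 178 genes overlap coding exons on the opposite strand, and the sources used here give no strand setting for the quantification, so their reads and those of the coding partner may not be separated. In the 199 genes without such overlap the shares were 31 of 45 (68.9%) and 33 of 41 (80.5%), beside 69.6% and 69.5% of coding pairs. Between the knockouts it was 41 of 52 (78.8%), beside 68.7% of coding pairs. For paired starts without such overlap it was 11 of 12 in the BRG1 knockout, 8 of 9 in the BRM knockout and 12 of 15 between the knockouts.

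**Figure D4:**
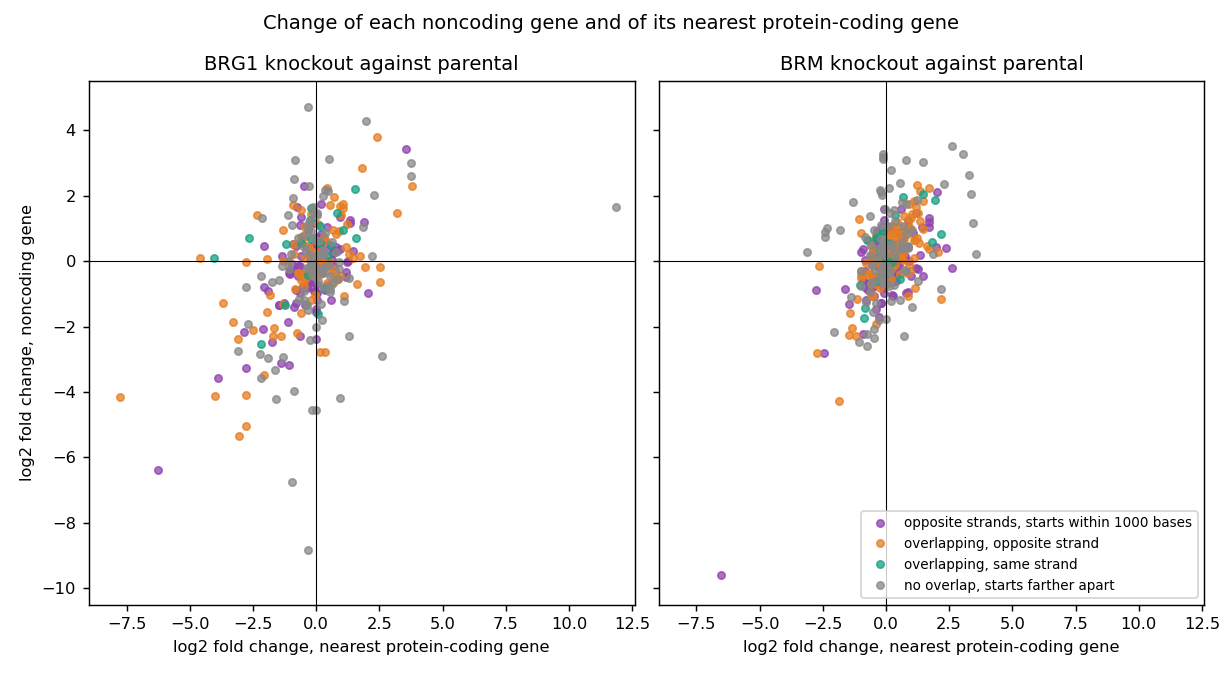
Log2 fold change of each noncoding gene (vertical) against that of its nearest protein-coding gene (horizontal) for the BRG1 and the BRM knockout against parental cells, 339 genes in each panel, coloured by position. Genes with paired start sites tend to lie along the rising diagonal, with SOX21-AS1 at the lower left for BRG1 and SNHG18 at the lower left for BRM.

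SNHG18 and SOX21-AS1 share no exonic bases with coding exons, and each starts beside a coding gene that runs the other way. Their promoter windows are shown for that reason, from RefSeq on GRCh38.p14, plus strand; capitals mark the bases between the RefSeq start of the noncoding gene and that of its coding partner.
SNHG18 and SEMA5A, chr5:9545950-9546249: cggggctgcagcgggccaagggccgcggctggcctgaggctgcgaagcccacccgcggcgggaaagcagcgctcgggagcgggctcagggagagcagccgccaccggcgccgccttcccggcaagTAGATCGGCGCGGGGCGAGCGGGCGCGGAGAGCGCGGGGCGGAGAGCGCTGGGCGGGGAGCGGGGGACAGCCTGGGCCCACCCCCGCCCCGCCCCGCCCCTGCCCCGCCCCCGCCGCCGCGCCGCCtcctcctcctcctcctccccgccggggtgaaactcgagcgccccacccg
SOX21-AS1 and SOX21, chr13:94712466-94712765: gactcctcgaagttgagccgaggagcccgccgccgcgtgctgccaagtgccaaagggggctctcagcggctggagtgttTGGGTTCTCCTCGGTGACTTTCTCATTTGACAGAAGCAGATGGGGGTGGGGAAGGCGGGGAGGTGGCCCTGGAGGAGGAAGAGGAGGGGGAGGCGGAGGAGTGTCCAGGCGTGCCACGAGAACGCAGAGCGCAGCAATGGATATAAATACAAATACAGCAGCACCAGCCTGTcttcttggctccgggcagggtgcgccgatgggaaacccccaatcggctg
The starts are 125 bases apart at SNHG18 and 171 bases apart at SOX21-AS1. The first window is 81.3% G and C with 43 CG pairs, and the second is 62.3% G and C with 18, beside a median of 14 CG pairs over 35116 RefSeq windows of the same length.

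SEMA5A, which encodes a semaphorin of axon guidance, moved with SNHG18 in both knockouts. SNHG18 had 1.19, 0.973 and 0.249 CPM in the BRG1 knockout, 0.0268, 0 and 0 CPM in the BRM knockout and 10.8, 8.85 and 8.85 CPM in parental cells. SEMA5A had 2.33, 1.68 and 0.913 CPM in the BRG1 knockout, 0.536, 0.0903 and 0.152 CPM in the BRM knockout and 27.9, 22.3 and 23.1 CPM in parental cells. For both genes the BRM knockout was lowest, the BRG1 knockout next and the parental line highest, without overlap. In the BRG1 knockout SNHG18 fell by 3.56 ± 0.49 and SEMA5A by 3.89 ± 0.45 (adjusted p = 0.00022 and 8.2e-05), and in the BRM knockout SEMA5A fell by 6.52 ± 0.54 (adjusted p = 6.6e-05), or by 7.68 without BRM knockout replicate 1.

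SOX21, a transcription factor of progenitor cells, moved with SOX21-AS1. SOX21-AS1 had 0.227, 0.0263 and 0.0277 CPM in the BRG1 knockout, 2.71, 6.35 and 4.25 CPM in the BRM knockout and 8.45, 7.85 and 7.54 CPM in parental cells. SOX21 had 0.767, 0.210 and 0.0277 CPM, 6.25, 10.4 and 7.82 CPM, and 26.7, 26.0 and 23.9 CPM in the same groups. No groups overlapped for either gene, and the BRM knockout lay between the others. The falls with BRG1 loss were 6.38 ± 0.61 and 6.25 ± 0.62 (adjusted p = 2.2e-05 and 3.6e-05). Without BRG1 knockout replicate 1 they were 8.10 and 7.74.

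HAGLR, antisense in the HOXD cluster with a start beside HOXD1, was low in the BRG1 knockout and high in the BRM knockout. It had 1.28, 2.08 and 1.08 CPM in the BRG1 knockout, 28.7, 31.9 and 24.9 CPM in the BRM knockout and 8.38, 6.26 and 5.27 CPM in parental cells. HOXD1, a homeobox factor, had 0.142, 0.184 and 0.0553 CPM, 3.97, 4.09 and 3.24 CPM, and 1.29, 0.783 and 0.739 CPM in the same groups. Groups did not overlap for either gene. HAGLR changed by -2.16 ± 0.28 and 2.10 ± 0.26 in the BRG1 and the BRM knockout (adjusted p = 0.00015 and 0.0003) and HOXD1 by -2.84 ± 0.45 and 2.01 ± 0.37 (adjusted p = 0.00056 and 0.002). The direct difference of HAGLR between the knockouts was -4.26 ± 0.30 (adjusted p = 2e-06).

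TMPO-AS1 and TMPO, the lamina-associated polypeptide gene of nuclear structure, share a start region and fell in both knockouts. TMPO-AS1 had 3.01, 4.55 and 5.34 CPM in the BRG1 knockout, 1.23, 2.32 and 1.14 CPM in the BRM knockout and 9.61, 11.8 and 11.6 CPM in parental cells, without overlap. It fell by 1.35 ± 0.31 and 2.82 ± 0.33 (adjusted p = 0.0052 and 0.00023), and TMPO by 1.48 ± 0.26 and 2.44 ± 0.27 (adjusted p = 0.00099 and 0.00016). With the transcript length offset the fall of TMPO-AS1 in the BRG1 knockout was 2.05.

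KRT7-AS lies opposite KRT7, a keratin of simple epithelia, and fell with it in the BRG1 knockout. KRT7-AS had 0.369, 0.552 and 0.111 CPM in the BRG1 knockout, 11.2, 8.19 and 10.7 CPM in the BRM knockout and 6.76, 5.97 and 5.46 CPM in parental cells. The BRG1 knockout lay below both other groups. The falls were 4.12 ± 0.42 and, for KRT7, 3.99 ± 0.55 (adjusted p = 3.3e-05 and 0.00034), or 4.71 and 4.69 without BRG1 knockout replicate 2. Epithelial markers fell with BRG1 loss as given above.

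LOXL1-AS1 lies opposite LOXL1, an enzyme that crosslinks elastin, and both were higher in the BRG1 knockout. LOXL1-AS1 had 20.1, 24.9 and 31.9 CPM in the BRG1 knockout, 2.41, 3.07 and 3.52 CPM in the BRM knockout and 3.69, 6.47 and 5.63 CPM in parental cells. It rose by 2.28 ± 0.27 in the BRG1 knockout (adjusted p = 8.2e-05), beside 3.79 ± 0.29 for LOXL1 (adjusted p = 5.6e-06), and the difference of LOXL1-AS1 between the knockouts was 3.09 ± 0.28 (adjusted p = 1.1e-05). AL391422.4, paired with PXDC1, rose by 3.41 ± 0.54 beside 3.57 ± 0.28 for PXDC1 (adjusted p = 0.00055 and 5.8e-06), and by 4.09 without parental replicate 1. AL109615.3 fell by 4.15 ± 0.43 beside 7.75 ± 0.68 for C6orf223 (adjusted p = 3.5e-05 and 2.5e-05). The fall of AL109615.3 was 5.96 with the transcript length offset, and that of C6orf223 was 8.47 without BRG1 knockout replicate 1 and 7.15 without parental replicate 1.

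**Figure D5:**
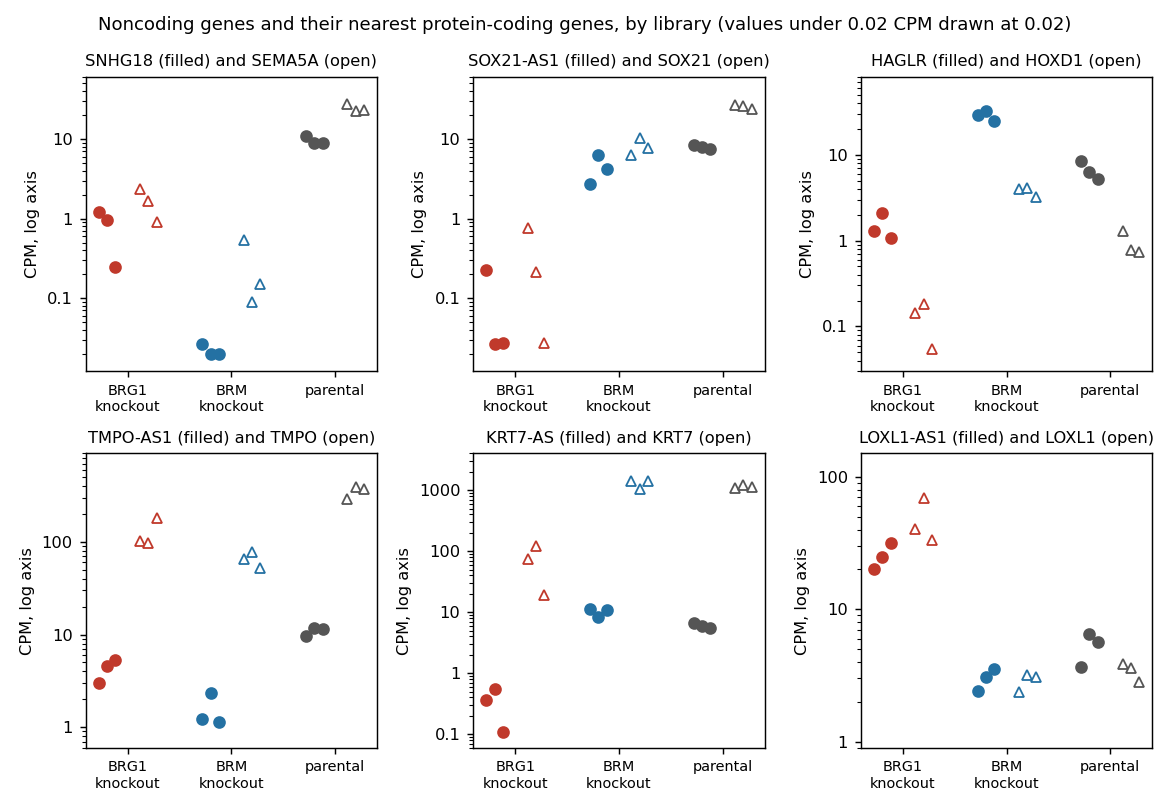
CPM on a log axis of 6 noncoding genes (filled circles) and their nearest protein-coding genes (open triangles) in each library, from left to right the BRG1 knockout, the BRM knockout and parental cells; values under 0.02 CPM are drawn at 0.02. SNHG18 and SEMA5A are lowest in the BRM knockout, while HAGLR and HOXD1 are highest there.

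In the BRM knockout, further close pairs moved together. PIK3CD-AS2 had 7.35, 8.10 and 7.95 CPM, against 2.70, 1.28 and 1.07 CPM in parental cells, and rose by 2.22 ± 0.39 beside 1.70 ± 0.23 for PIK3CD, a lipid kinase subunit (adjusted p = 0.0015 and 0.0004). LINC00294 rose by 2.05 ± 0.33 beside 1.48 ± 0.32 for TCP11L1, which it overlaps on the same strand (adjusted p = 0.0011 and 0.0048), and in the BRG1 knockout by 2.19 ± 0.34 (adjusted p = 0.00045). AC024909.2 rose by 1.84 ± 0.35 beside 1.48 ± 0.23 for DUSP6 (adjusted p = 0.0022 and 0.00085), with 83.1% of its exonic bases opposite coding exons of this phosphatase of ERK. AC098864.1, opposite the teneurin gene TENM3, had 0.831, 2.53 and 0.759 CPM, against 4.73, 8.95 and 6.13 CPM in parental cells. It fell by 2.27 ± 0.56 beside 1.46 ± 0.31 for TENM3 (adjusted p = 0.0093 and 0.0046), and by 3.05 without BRM knockout replicate 2.

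The genes of the set differed from other candidates in the annotation. Their exons covered a median of 2904 bases, against 701 in the 12226 other candidates, and their gene bodies 7180 bases against 5304. The median gap to a coding gene was 0 bases in the set and 949 bases in the others. Since reads of a gene grow with its exonic length, a threshold in CPM favours long transcripts. A median of 13.9% of a gene's words of 31 bases also occurred in transcripts of other genes, 161 genes had under 10% and 78 had 50% or more. The motif TGANTCA, which AP-1 factors bind, was in 11.7% of 163 RefSeq promoter windows of the set (131 genes, either strand), against 7.70% of all 35116 windows. The motif TGACNNNGC of NRF2 was in 17.8% against 13.3%, and the 2 may overlap. Neither was in the SNHG18 or the SOX21-AS1 window.

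By chromosome, the calls of the set lay on the same side as those of all genes tested in some places and not in others. On chromosome 8, 1 of 16 genes of the set rose and 9 fell with BRG1 loss (median -1.05), beside 73 and 250 of 649 genes of all types (median -0.41). With BRM loss 8 rose and 2 fell there (median 0.92), beside 162 and 101 of 649 (median 0.17). On chromosome 12, 3 rose and 9 fell of 29 with BRM loss (median -0.17), beside 102 and 288 of 929 (median -0.26). On chromosome 3, 9 rose and 3 fell of 15 with BRG1 loss (median 0.94), beside 232 and 184 of 995 (median 0.08). On chromosome 19, 5 rose and 8 fell of 27 with BRM loss (median -0.34), beside 299 and 165 of 1364 (median 0.15). On chromosome 11, 2 rose and 0 fell of 12 with BRG1 loss (median 0.08), beside 159 and 313 of 972 (median -0.27). These chromosomes were picked after their values were seen.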

How the data were processed

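RNA-seq libraries of 3 groups of H358 cells, 3 each, were quantified by the authors with Salmon, per the submitters' processing notes, which also name DESeq2 and hg38. No versions, annotation, library type or strand setting are given in the sources used here. Files as deposited give, per the file headers, estimated counts (NumReads) and TPM for each of 203835 transcripts. From the deposited estimated counts, transcripts were matched to GENCODE 29 genes (89 had no gene and at most 0.0193% of the reads), summed per gene and rounded. Libraries of one group differed by more than sampling noise, so none was merged. The test was edgeR's quasi-likelihood test (edgeR 4.0.16, R 4.3.3, limma 3.58.1) with TMM factors and edgeR's filter on low counts, fitted to all 9 libraries, with Benjamini-Hochberg adjustment over 18205 genes and a threshold of 0.05; it was tested on simulated data. The SE is the log2 change divided by the root of its F statistic, an approximation that is unreliable for genes with few reads. Counting intervals are exact and cover counting error alone. Nearest protein-coding genes were found by the gap between gene bodies, shared sequence by words of 31 bases, and sequences came from RefSeq tables.

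The genes of the set, the gene lists and the tests were chosen with earlier results of these data known. Genes named by rule were members of the role lists; in each comparison the 8 largest rises and 8 largest falls past the threshold with groups that do not overlap; the 10 with the most reads in parental cells; up to 8 per knockout within 5000 bases of a coding gene where both changed by at least 1 (log2); and 3 on each side of the 5 CPM threshold. Not every gene that the rule allows is described, and 1 of the gene lists is not reported here. AC048341.1, AC145207.3, FAM225A, the genes listed for opposite changes and the chromosomes were chosen after their values were seen. Alternatives were RLE factors, DESeq2 1.42.0, no filter, an offset for transcript length, the 6 libraries compared, the replicate number as a block, each library left out, and other thresholds for the set.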

Additional observations from a re-analysis of the deposited data

How the results depend on the processing

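The counts of genes called stayed within 1.5 times the reported ones under RLE factors, DESeq2, no filter on low counts, the transcript length offset, a fit of the 6 libraries compared and, chosen after seeing the data, without genes sharing 50% or more of their words and without BRG1 knockout replicate 3 and parental replicate 1. Leaving out 1 library gave 151 to 206 calls for BRG1 knockout against parental (192 reported), 106 to 191 for BRM knockout against parental (170 reported) and 158 to 219 between the knockouts (195 reported). Other choices of the set changed the number of genes considered and with it the calls, given for BRG1 knockout, BRM knockout and the knockouts against each other. With the mean over all 9 libraries 117, 108 and 124 of 257 passed, at 10 CPM 101, 96 and 106 of 192, at 1 CPM 522, 377 and 516 of 1200, and without antisense exon overlap 113, 93 and 109 of 199. The share of pairs changing the same way with BRG1 loss was 68.9% with overlapping exons left out, against 79.6% reported and 69.6% for coding pairs.

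Same-numbered libraries of different groups did not deviate together (correlations of deviations -0.079 to 0.175), so the numbers were not taken as pairs; with the replicate number as a block the counts were 186, 163 and 188. Of 116 named results, 9 lost their call under at least 1 alternative, 7 of them on leaving out 1 library, and none under the block. The sign turned only for changes that did not pass. NORAD with BRG1 loss (0.03, or 0.16 without BRG1 knockout replicate 2) was -0.05 with no filter, without BRG1 knockout replicate 1 and without BRM knockout replicate 1. It was -0.25 without BRG1 knockout replicate 3 and -0.20 without both that library and parental replicate 1. NEAT1 with BRG1 loss (0.27, or 0.50 without parental replicate 3) was -0.26 without BRG1 knockout replicate 1. AFAP1-AS1 with BRM loss (0.11, or 0.25 without parental replicate 2) was -0.03 without BRM knockout replicate 1. It was -0.09 without both BRG1 knockout replicate 3 and parental replicate 1. The causes were not tested. Genes at a few reads have changes whose size depth does not fix.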
